A study of Daphnia magna with 15 samples.

Results

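Whole *Daphnia magna* raised on *Cryptomonas* (CRY, 3 libraries) were compared with animals raised on a green alga (GA, 3 libraries), both at 15 °C. These 6 libraries were chosen by the diet named in the sample labels, out of 15 libraries of 5 diets in the series. All animals belonged to 1 clone, P132.85, were females reproducing by parthenogenesis, and were taken when their first eggs lay in the brood pouch, so that maternal tissue and eggs were sequenced together. Their mothers had been kept on *Acutodesmus obliquus*, the alga of the GA diet. *Cryptomonas* is a flagellate that contains the long-chain polyunsaturated fatty acid eicosapentaenoic acid (EPA), whereas *A. obliquus* lacks it. According to the study's methods the GA animals also received control liposomes, the carrier used for EPA in other groups. These methods standardise the liposome load over all treatments they describe, but do not name CRY among them, so whether CRY animals received liposomes is unclear. EPA, the other nutrients of the 2 foods and any effect of liposomes therefore cannot be told apart in this comparison. Each library came from a pool of animals, of 3 by one label and of 5 by the extraction notes. Diets were kept in replicate vessels according to the study's methods, which name neither CRY nor the vessel of each pool, and the p-values measure the spread between these pools.

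*Daphnia* filter suspended algae, digest them in a gut lined by a chitinous peritrophic matrix, and turn the absorbed lipid and protein into yolk. The yolk precursor vitellogenin is secreted into the haemolymph and taken up by the ovary. In *Daphnia* the vitellogenin protein carries a domain related to superoxide dismutase, hence the product name "vitellogenin fused with superoxide dismutase". EPA is a building block of membranes and the precursor of eicosanoids, hormone-like lipids that take part in reproduction and immunity of arthropods. Food rich in EPA, such as cryptophytes, is known as good food for *Daphnia*.

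Expected read counts summed to 18218136 to 19749270 in the CRY libraries and to 18649441 to 22037993 in the GA libraries (mean difference −7.63%, exact permutation p = 0.3, two-sided, smallest possible 0.1). A gene was called at an edgeR adjusted p of at most 0.01. Of 14303 genes tested, 2319 were called (16.2%), 947 higher (6.62%) and 1372 lower (9.59%) in CRY than in GA. These shares are the background against which each group of genes below is read. In 6592 of the 14303 genes tested (46.1%) the CRY and GA libraries did not overlap. Many genes below were named for lack of overlap or for a small p, so their lack of overlap is no separate evidence. The median log2 fold change was −0.0039 over the 14303 genes. Of the called genes, 339 that rose and 462 that fell did so by 1 or more on the log2 scale. The count of called genes was 1440 without CRY replicate 1, 1401 without GA replicate 1, 1450 without GA replicate 2 and 1369 without GA replicate 3, and 1146 of the 2319 genes were called whichever single library was left out. With limma on the authors' FPKM values, where both the scaling and the test differ, the median of all genes moved to −0.17 and 17.9% of 2659 calls were higher in CRY, against 40.8% in the main test. Directions are thus given relative to the TMM scale, on which the normalised counts (CPM, scaled to a common library size) are also computed, and none of the 2319 genes was called in the opposite direction under any alternative. The first principal component of the 6 libraries held 65.2% of the variance and separated the diets. The second, with 15.0%, set the CRY libraries apart from each other, with replicate 2 opposite to replicates 1 and 3.

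**Figure D1:**
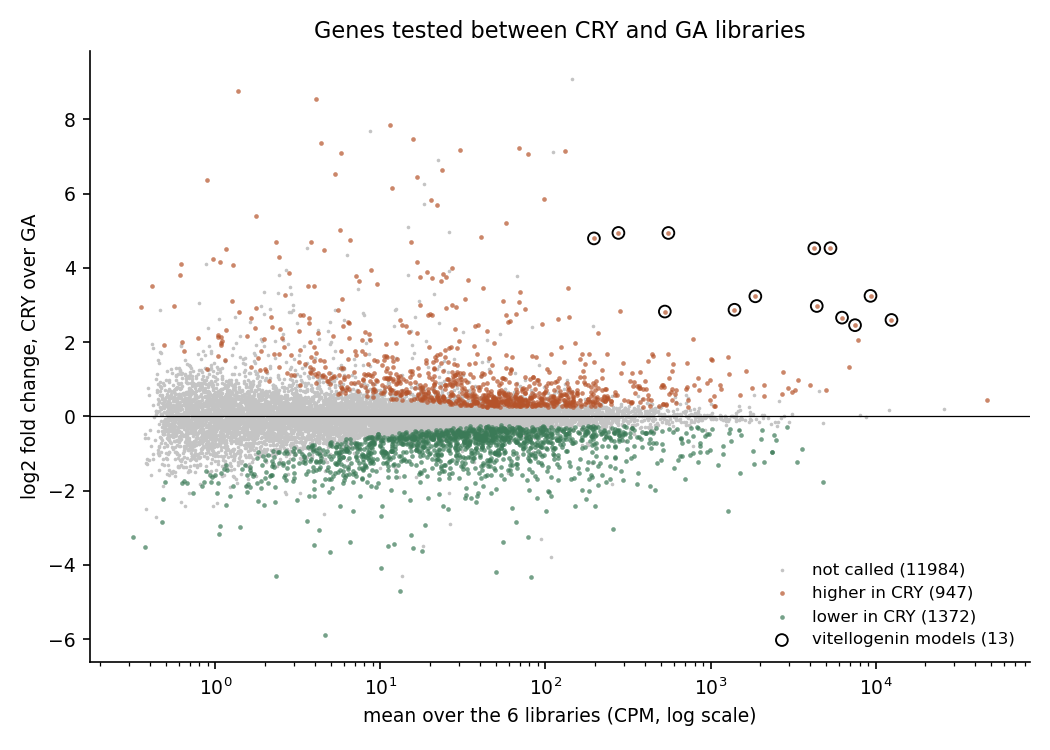
Log2 fold change of CRY over GA for each of the 14303 tested genes (vertical axis) against its mean level over the 6 libraries (CPM, log scale, horizontal axis), with genes called higher in CRY in orange, lower in green, not called in grey, and 13 vitellogenin models circled. The vitellogenin models lie between 2.46 and 4.94 on the log2 scale, towards the right of the plot.

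The functional categories of the deposited annotation (artNOG, a grouping of arthropod genes by orthology) differed in how often and in which direction their genes were called. Lipid transport and metabolism had 62 genes higher and 46 lower among 378 tested. Its higher calls include vitellogenin models, which do not each stand for a separate gene, as given below. In amino acid transport and metabolism 55 rose and 72 fell among 421, and in carbohydrate transport and metabolism 46 rose and 75 fell among 450. Calls were mainly lower in signal transduction (49 higher and 161 lower of 1311), in secondary metabolites (9 and 43 of 193) and in inorganic ion transport (19 and 54 of 314). RNA processing had 32 genes higher and 12 lower among 361. Translation and ribosomes had few calls in either direction, 7 higher and 14 lower of 375, well under the background.

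Vitellogenin transcripts took a larger share of the CRY libraries. All 13 models annotated as vitellogenin fused with superoxide dismutase were called higher in CRY, with log2 fold changes of 2.46 to 4.94 (median 3.24). Together they held 97798, 112065 and 80060 CPM in CRY libraries, against 8645, 14291 and 13072 CPM in GA libraries, an 8.05-fold difference between the group means. As a share of the raw counts this was 7.59% to 10.6% in CRY and 0.923% to 1.5% in GA. KZS01801.1 had 21326, 24510.5 and 18373 CPM in CRY libraries, against 2606, 4199 and 3799 CPM in GA libraries (log2 fold change 2.60 ± 0.18 (SE), adjusted p = 3.9e-05). KZS01586.1 had 16257, 18855 and 15407 CPM in CRY libraries, against 1207, 2040.2 and 2072 CPM in GA libraries (log2 fold change 3.25 ± 0.21 (SE), adjusted p = 2.2e-05). In both models, as in the other 11, every CRY library lay above every GA library and the call stood whichever library was left out. The highest ratios were those of KZS00271.1, with 1113, 1169 and 945 CPM in CRY libraries, against 14.4, 40.7 and 49.9 CPM in GA libraries, and of KZS00833.1, with 579, 588 and 439.6 CPM in CRY libraries, against 8.15, 19.9 and 24.2 CPM in GA libraries (log2 fold changes 4.94 ± 0.41 and 4.94 ± 0.37). GA replicate 1 was the lowest GA library in each of the models given here. The 13 models do not stand for 13 genes: they lie on 12 scaffolds of the reference v2.4, 9 begin at base 1 of their scaffold, 8 are shorter than 1000 bases and 7 have counts that are not whole because reads were split between models, so that single values are uncertain and the sum is firmer.

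The scaffold LRGB01003325.1 carries the vitellogenin models KZS03198.1 and KZS03199.1. A window on it from KZS03190.1 to KZS03199.1 (bases 18825 to 70034) held 10 genes and was set after values were seen. Of these 10 genes 9 were tested and 3 were called, all higher, namely the vitellogenin models and the uncharacterized KZS03190.1. Called genes thus form both ends of the window, which is only a part of the scaffold. KZS03198.1 had 8363, 10288 and 5781 CPM in CRY libraries, against 199.9, 426 and 433 CPM in GA libraries (log2 fold change 4.53 ± 0.35 (SE), adjusted p = 5.6e-05). KZS03190.1, which carries no product name, had 11986, 15465 and 10138 CPM in CRY libraries, against 2679, 3511 and 2899.6 CPM in GA libraries (log2 fold change 2.05 ± 0.16 (SE), adjusted p = 6.8e-05) and was among the 10 most abundant called genes.

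In the wider list of yolk and lipoprotein genes, 16 of 31 tested members were called higher and 2 lower (median 0.54), and 3 of those that rose were not vitellogenin models. These were KZS04667.1, the large subunit of the microsomal triglyceride transfer protein that loads lipid onto lipoproteins, with 280.3, 262 and 263 CPM in CRY libraries, against 181, 187 and 187 CPM in GA libraries (log2 fold change 0.54 ± 0.06 (SE), adjusted p = 2.6e-04), the very low-density lipoprotein receptor KZS03266.1 (log2 fold change 0.59 ± 0.07) and a low-density lipoprotein receptor, KZS04260.1 (log2 fold change 0.61). Both genes that fell are named after proteins of the egg. Vitelline membrane outer layer protein 1, named after a protein of the egg coat in birds, fell in KZS21174.1, with 185, 184 and 187 CPM in CRY libraries, against 671, 724 and 637 CPM in GA libraries (log2 fold change −1.87 ± 0.06 (SE), adjusted p = 1.5e-06). The vitellogenin receptor KZS02964.1, which takes up yolk into the oocyte, had 362, 429 and 342 CPM in CRY libraries, against 531, 509 and 502 CPM in GA libraries (log2 fold change −0.44 ± 0.09 (SE), adjusted p = 0.0058), and this call was lost without CRY replicate 1, CRY replicate 3, GA replicate 1, GA replicate 2 and GA replicate 3. The groups did not overlap in any of these genes.

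**Figure D2:**
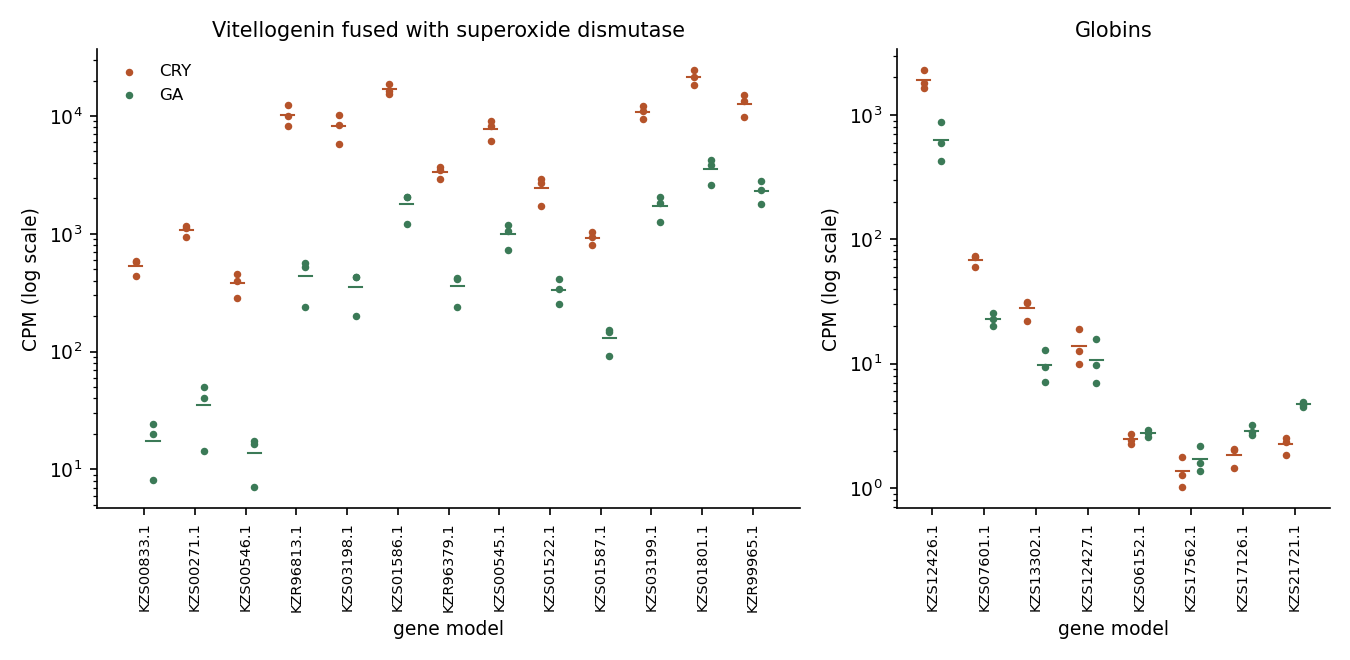
Level (CPM, log scale) of the 13 vitellogenin models and of the 8 globin models in each library, CRY in orange at the left and GA in green at the right of each model, with a bar at the group mean. All CRY points lie above all GA points in the 13 vitellogenin models and in 3 globins, while the neuroglobins KZS21721.1 and KZS17126.1 show the reverse.

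Genes that the study sets beside earlier work on *Cryptomonas*-fed animals did not pass the test. That earlier work used qPCR, at a higher temperature than here and with animals kept until a later clutch. The study's own pattern for these genes is that of animals with and without dietary EPA, not of CRY against GA. The values below repeat neither comparison, so neither result was tested here. KZS21011.1, KZS21012.1 and KZS06496.1 (annotated as uncharacterized, and treated in the study as vitellogenins) differed by 0.07 ± 0.11, 0.08 ± 0.11 and 0.12 ± 0.12 on the log2 scale (adjusted p = 0.69, 0.61 and 0.47). KZS21012.1, for example, had 68.3, 62.2 and 79.7 CPM in CRY libraries, against 58.5, 68.2 and 71.8 CPM in GA libraries, so that the groups overlapped. A juvenile hormone-inducible protein (KZS09289.1) differed by −0.03 ± 0.11 on the log2 scale and a brain-type fatty acid-binding protein (KZS18357.1) by −0.16 ± 0.14. Separate from these are the models that the study takes as housekeeping genes, under the names of glyceraldehyde-3-phosphate dehydrogenase and succinate dehydrogenase. Glycerol-3-phosphate dehydrogenase (KZS15286.1) differed by 0.11 ± 0.06 on the log2 scale and the calcium uptake protein KZS06688.1 by 0.06 ± 0.08, and neither was called. Nor was any of 5 others called, with log2 fold changes of −0.11 (KZS06031.1), −0.11 (KZS04241.1), −0.55 (KZR98715.1), −0.07 (KZS19960.1) and 0.20 (KZS19824.1). Glyceraldehyde-3-phosphate dehydrogenase KZS01487.1, of glycolysis, had 1189, 1103 and 1205 CPM in CRY libraries, against 928, 991 and 953 CPM in GA libraries (log2 fold change 0.28 ± 0.06 (SE), adjusted p = 0.0072) and lost the call without CRY replicate 1, CRY replicate 3, GA replicate 1, GA replicate 2 and GA replicate 3. A further pair of glyceraldehyde-3-phosphate dehydrogenase models (KZS01268.1, KZR98522.1) and a WD repeat-containing protein (KZS02020.1) were listed at 0 in all 6 libraries. KZS98609.1, which the study also lists, was not found under that identifier and has no value here.

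Globins carry oxygen in the haemolymph of *Daphnia*. Their summed level was 1779 to 2422 CPM in CRY and 485 to 932 CPM in GA, without overlap. In this list 3 of 8 tested members were called higher and 1 lower (median 0.10), and 2 were called without GA replicate 2. The abundant haemoglobin KZS12426.1 had 1655, 1802 and 2293 CPM in CRY libraries, against 423, 590.4 and 874 CPM in GA libraries (log2 fold change 1.61 ± 0.24 (SE), adjusted p = 0.0018), no overlap, with the call lost without GA replicate 2. A second haemoglobin, KZS13302.1, had 30.7, 22 and 31.5 CPM in CRY libraries, against 7.17, 9.38 and 12.9 CPM in GA libraries (log2 fold change 1.51 ± 0.22, adjusted p = 0.0015), and cytoglobin-2 KZS07601.1 had 73.9, 59.5 and 71.6 CPM in CRY libraries, against 25.6, 20.1 and 23 CPM in GA libraries (log2 fold change 1.57 ± 0.11, adjusted p = 3.7e-05). The neuroglobin KZS21721.1 was lower in CRY (log2 fold change −1.07). A row of 5 genes was set after values were seen, with called genes at both ends (LRGB01001361.1, bases 1123752 to 1147435). Of these 5 genes 4 were higher in CRY, among them KZS12426.1. Its uncharacterized neighbour KZS12429.1 had 9347, 9887 and 10117 CPM in CRY libraries, against 3573, 4191 and 3983 CPM in GA libraries (log2 fold change 1.32 ± 0.07 (SE), adjusted p = 1.2e-05), KZS12428.1 rose by 0.86 ± 0.10 on the log2 scale, and KZS12430.1 had 11.8, 8.19 and 13.4 CPM in CRY libraries, against 0.401, 0.308 and 0.302 CPM in GA libraries (log2 fold change 5.01 ± 0.27). The haemoglobin in the same row that was not called, KZS12427.1, had 9.91, 12.5 and 19.1 CPM in CRY libraries, against 15.7, 6.97 and 9.66 CPM in GA libraries, with overlapping groups.

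Trypsins and chymotrypsins, the endopeptidases that open dietary proteins in the *Daphnia* gut, were called in both directions. In this list 16 of 54 tested members were called higher and 7 lower (median 0.03). Calls were 10 higher and 10 lower with the FPKM values, and 4 higher and 1 lower with all 15 libraries in one fit. The summed level of the list was 13615 to 15455 CPM in CRY and 15404 to 16530.4 CPM in GA. This list does not hold ovochymase-2 and Phaedra 2, which are given below. Genes named Jonah, Phaedra or ovochymase were collected separately, with 0 of 7 tested called higher and 5 lower. On average they summed to 2635 CPM in CRY and 10179 CPM in GA. The largest rise in the list was that of a clip-domain serine protease, KZR98511.1, a type of protease that acts in proteolytic cascades of arthropod immunity, with 153, 189 and 123 CPM in CRY libraries, against 0.623, 1.79 and 1.12 CPM in GA libraries (log2 fold change 7.06 ± 0.29 (SE), adjusted p = 2.8e-06). Chymotrypsin-C KZS15683.1 had 285, 229 and 239 CPM in CRY libraries, against 20.2, 22.2 and 26.4 CPM in GA libraries (log2 fold change 3.45 ± 0.13 (SE), adjusted p = 2.1e-06). In the other direction, the chymotrypsin KZS16604.1 had 26.7, 25 and 27.8 CPM in CRY libraries, against 78.3, 87.6 and 91.1 CPM in GA libraries (log2 fold change −1.69 ± 0.08) and serine protease 57 KZS16583.1 had 11.5, 12.1 and 11.5 CPM in CRY libraries, against 30.8, 35.5 and 34.8 CPM in GA libraries (log2 fold change −1.53 ± 0.09). No library of one diet reached into the range of the other in these genes, which were chosen by lack of overlap or by a small p.

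Proteases of both directions stood side by side in one row of 9 genes on the scaffold LRGB01000868.1 (bases 1315788 to 1356833), where 3 were higher and 4 lower among 8 tested. The row was set after values were seen, and the genes at both its ends were called lower. Trypsin KZS15684.1 had 3627, 3086 and 3111 CPM in CRY libraries, against 2112, 2050.5 and 2247 CPM in GA libraries (log2 fold change 0.62 ± 0.08) and trypsin KZS15682.1 had 2678, 2250.0 and 2596 CPM in CRY libraries, against 1520.4, 1719 and 1896 CPM in GA libraries (log2 fold change 0.55 ± 0.10, call lost without CRY replicate 1, CRY replicate 3, GA replicate 1 and GA replicate 2), and between them lies the chymotrypsin-C given above. The next trypsin in the row, KZS15681.1, went the other way, with 1714, 1465 and 1633 CPM in CRY libraries, against 3100.2, 3060.4 and 3232 CPM in GA libraries (log2 fold change −0.96 ± 0.07 (SE), adjusted p = 3.9e-05). Ovochymase-2 KZS15680.1, a protease named after an enzyme of frog eggs, had 364, 342 and 409 CPM in CRY libraries, against 2303, 2101 and 2166 CPM in GA libraries (log2 fold change −2.56 ± 0.08), and Phaedra 2 KZS15686.1, a serine protease-like protein named in *Drosophila*, had 56.8, 50.9 and 59.3 CPM in CRY libraries, against 485, 338 and 541 CPM in GA libraries (log2 fold change −3.03 ± 0.17). Related to these by name is Jonah 65Aiv KZS14413.1, a gut serine protease in *Drosophila*, which was among the 10 most abundant called genes and had 2248, 2059.9 and 2226 CPM in CRY libraries, against 7812, 6764 and 7768 CPM in GA libraries (log2 fold change −1.77 ± 0.07 (SE), adjusted p = 3.3e-06). Such copies are similar in sequence, and how reads were divided among them rests on the authors' counting.

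The remaining peptidases, a list of carboxypeptidases, aminopeptidases and dipeptidases, which are exopeptidases, together with metalloendopeptidases and cathepsins, were lower in CRY more often than higher. Here 10 of 97 tested members were called higher and 21 lower (median −0.02), 16 were called without GA replicate 1, 1 higher and 3 lower with all 15 libraries in one fit, and 3 higher and 27 lower with the FPKM values. The summed level was 11065 to 11989 CPM in CRY and 17463 to 17511 CPM in GA. Carboxypeptidase B KZS09625.1 had 855, 703 and 802 CPM in CRY libraries, against 2346, 2059 and 2339.8 CPM in GA libraries (log2 fold change −1.52 ± 0.09 (SE), adjusted p = 1.5e-05). Aminopeptidase N KZS09066.1 had 73.4, 61.8 and 69.4 CPM in CRY libraries, against 222, 219 and 213 CPM in GA libraries (log2 fold change −1.68 ± 0.07). Carboxypeptidase E KZS04404.1, which trims peptide hormones in vertebrates, had 25.6, 27.9 and 26.2 CPM in CRY, against 53.6, 53.9 and 55.1 CPM in GA (log2 fold change −1.03 ± 0.06). Each of these fell without overlap of the groups. Dipeptidase 1 KZS18072.1 rose, with 31.1, 26.4 and 25.5 CPM in CRY libraries, against 5.52, 6.46 and 5.57 CPM in GA libraries (log2 fold change 2.24 ± 0.12 (SE), adjusted p = 9.1e-06), and was higher in CRY than in any library of the other diets.

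Among glycoside hydrolases, which break down starch, cellulose and other polysaccharides, 10 of 61 tested members were called higher and 11 lower (median 0.03). The calls were 16 higher and 15 lower with DESeq2, and 2 higher and 1 lower with all 15 libraries in one fit. Starch and maltose enzymes were split. Maltase A6 KZS09326.1 had 742, 653 and 631 CPM in CRY libraries, against 209.8, 216 and 205 CPM in GA libraries (log2 fold change 1.68 ± 0.07 (SE), adjusted p = 3.4e-06), whereas alpha-amylase 1 KZS16400.1 had 548, 461 and 567 CPM in CRY libraries, against 1028, 1021 and 1056 CPM in GA libraries (log2 fold change −0.98 ± 0.08 (SE), adjusted p = 7.8e-05). Of the enzymes acting on mannan, endo-beta-1,4-mannanase was higher in KZS10753.1 and KZS10752.1 (log2 fold changes 1.17 and 0.61), whereas beta-mannosidase KZS12421.1 was lower (log2 fold change −0.53 ± 0.06). Endoglucanase KZS16516.1 was higher (log2 fold change 0.69). The beta-hexosaminidases, which release amino sugars, moved in both directions: KZS18364.1 had 17.9, 14.1 and 17.7 CPM in CRY, against 5.65, 5.69 and 5.09 CPM in GA (log2 fold change 1.60 ± 0.13), and KZS20093.1 had 295, 309.6 and 333 CPM in CRY, against 532, 577 and 583 CPM in GA (log2 fold change −0.85 ± 0.07). None of the groups of libraries overlapped in the genes with values given.

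Lipases and esterases held some of the largest rises of the comparison. Of these genes, 13 of 70 tested members were called higher and 10 lower (median −0.04), with 15 called without GA replicate 1, 13 without GA replicate 3, and 10 higher and 13 lower with the FPKM values. The carboxylic ester hydrolase KZS04989.1 had 56.2, 41.5 and 42.3 CPM in CRY libraries, against 0.668, 0.41 and 0.302 CPM in GA libraries (log2 fold change 6.64 ± 0.24 (SE), adjusted p = 1.9e-06). Triacylglycerol lipase KZS07195.1, which splits fatty acids from storage and dietary fat, had 139.5, 110.1 and 119 CPM in CRY libraries, against 17.1, 12.7 and 13.4 CPM in GA libraries (log2 fold change 3.09 ± 0.13 (SE), adjusted p = 3.4e-06). Pancreatic lipase-related protein 2 KZS04513.1 had 114, 84.7 and 102 CPM in CRY libraries, against 15, 14 and 16.5 CPM in GA libraries (log2 fold change 2.72 ± 0.12), and the ester hydrolase KZS07853.1 had 54.1, 46.6 and 51 CPM in CRY libraries, against 7.12, 6.77 and 5.78 CPM in GA libraries (log2 fold change 2.95 ± 0.10). The 3 genes KZS04989.1, KZS07195.1 and KZS07853.1 were higher in CRY than in all 12 libraries of the other diets. KZS04513.1 (LRGB01003123.1, bases 1639929 to 1641418) lies beside KZS04512.1 (bases 1637765 to 1639213), which has the same product name and was lower in CRY (log2 fold change −2.43), as was a phospholipase A2, KZS08312.1 (log2 fold change −2.42).

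**Figure D3:**
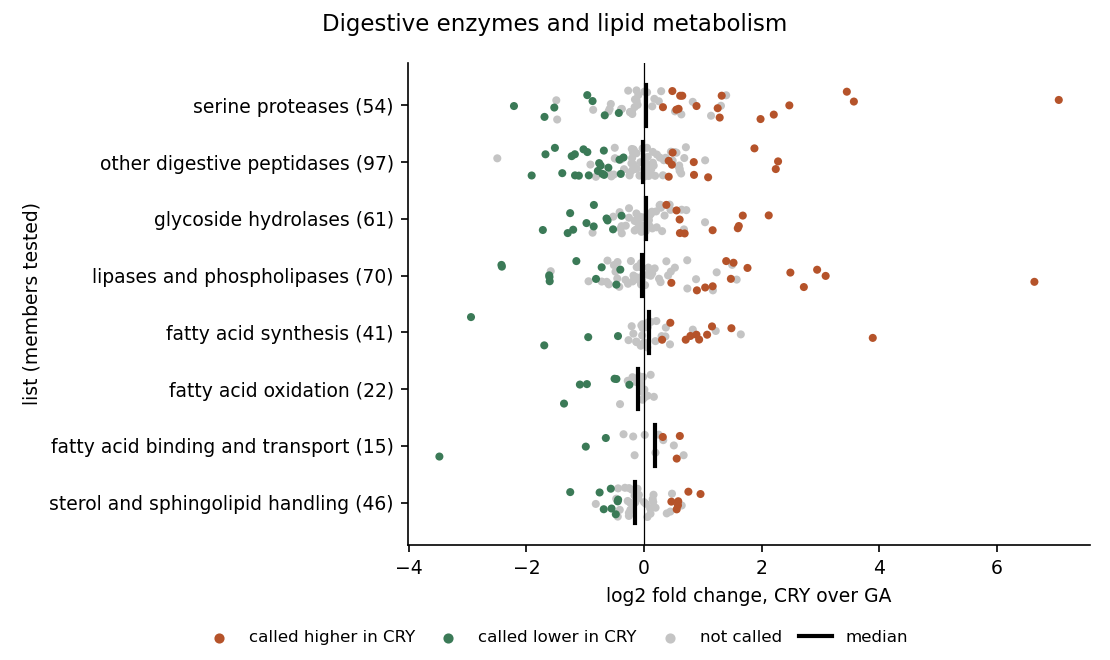
Log2 fold change of CRY over GA (horizontal axis) for every tested member of 8 lists of digestive and lipid genes, with members called higher in orange, lower in green and not called in grey, and a black bar at the median of each list. The medians lie between −0.15 and 0.20 while single proteases and lipases reach values of 7.06 and 6.64.

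Fatty acid synthesis, desaturation, elongation and activation was higher in CRY in 10 of 41 tested members and lower in 4 (median 0.09), with 9 called without GA replicate 3. Stearoyl-CoA desaturase 5, which places the first double bond in saturated fatty acids, was higher in both called models. KZS07233.1 had 394, 406 and 389.7 CPM in CRY libraries, against 185, 183 and 165 CPM in GA libraries (log2 fold change 1.16 ± 0.06 (SE), adjusted p = 1.1e-05), and KZS14319.1 had 216, 238 and 200.2 CPM in CRY libraries, against 109, 101 and 102 CPM in GA libraries (log2 fold change 1.07 ± 0.08 (SE), adjusted p = 3.9e-05). An elongase (elongation of very long chain fatty acids protein), KZS07283.1, stood at 3.89 on the log2 scale, and another, KZS21398.1, at low counts, had 0.501, 0.107 and 0.116 CPM in CRY, against 2.45, 1.23 and 1.98 CPM in GA (log2 fold change −2.94 ± 0.53), a call lost without CRY replicate 3, GA replicate 1 and GA replicate 3. Very-long-chain 3-oxoacyl-CoA reductase KZS16269.1, of the same elongation cycle, fell, with 43.4, 38 and 44 CPM in CRY libraries, against 134, 152 and 121 CPM in GA libraries (log2 fold change −1.70 ± 0.10 (SE), adjusted p = 1.5e-05). The acyl-CoA ligase of the bubblegum type, KZS17817.1, which activates very long fatty acids in *Drosophila*, had 591, 568 and 603 CPM in CRY libraries, against 1173, 1096 and 1132 CPM in GA libraries (log2 fold change −0.95 ± 0.05 (SE), adjusted p = 1.4e-05), below all 12 libraries of the other diets. In each gene given by library here the diets did not overlap.

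Fatty acid oxidation was called only in the lower direction in the main test, in 6 of 22 tested members and in none higher (median −0.10). With all 15 libraries in one fit none of the 22 was called. 3-Hydroxyacyl-CoA dehydrogenase type-2 KZS18089.1 had 52.2, 56.2 and 66 CPM in CRY libraries, against 132, 148 and 168 CPM in GA libraries (log2 fold change −1.36 ± 0.11 (SE), adjusted p = 8.5e-05). Acyl-coenzyme A oxidase KZS17380.1, the first enzyme of the peroxisomal pathway, had 112, 108 and 115 CPM in CRY libraries, against 155, 159 and 149 CPM in GA libraries (log2 fold change −0.47 ± 0.06). Peroxisomal carnitine O-octanoyltransferase KZS09072.1 had 82.2, 76.9 and 90.6 CPM in CRY, against 116, 116 and 121 CPM in GA (log2 fold change −0.50 ± 0.07), lost without CRY replicate 1. CRY libraries were the lower ones in each gene given here, while 5 of the 22 tested members had a log2 fold change above 0.

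Of the genes for binding and transport of fatty acids, 3 of 15 tested were higher and 3 lower. Calls were 6 higher and 4 lower without CRY replicate 2, and 0 higher and 3 lower without GA replicate 1 or without GA replicate 2. They were 0 higher and 4 lower with the FPKM values, and 0 higher and 2 lower with all 15 libraries in one fit. Long-chain fatty acid transport protein 1 KZS10131.1 had 2.12, 1.77 and 1.62 CPM in CRY libraries, against 28.9, 9.33 and 23.3 CPM in GA libraries (log2 fold change −3.48 ± 0.42 (SE), adjusted p = 5.7e-04). The acyl-CoA-binding protein KZS11387.1, a carrier of activated fatty acids, had 223, 226 and 230.0 CPM in CRY libraries, against 358, 363 and 344 CPM in GA libraries (log2 fold change −0.65 ± 0.05 (SE), adjusted p = 7.4e-05). Scavenger receptor class B member 1 KZS09773.1, which takes up lipid from lipoproteins in vertebrates, had 41.2, 41.6 and 51.2 CPM in CRY, against 29.6, 27 and 31.1 CPM in GA (log2 fold change 0.61 ± 0.10), a call lost without GA replicate 1 and GA replicate 2. A related gene outside this list, chosen after its values were seen, is KZS18356.1 (myelin P2 protein, a member of the fatty acid-binding family), with 1564, 1433 and 1542 CPM in CRY libraries, against 491, 538 and 543 CPM in GA libraries (log2 fold change 1.53 ± 0.06 (SE), adjusted p = 3.3e-06). An abundant retinoid- and fatty acid-binding glycoprotein, KZS06116.1, also chosen later, had 5340.2, 7024 and 4368 CPM in CRY, against 3618, 3397 and 3465 CPM in GA and was not called (adjusted p = 0.011). The glycolipid-transport protein KZS16921.1, one of the 10 most abundant called genes, had 6451, 5423 and 6811 CPM in CRY libraries, against 3596, 3562 and 4204 CPM in GA libraries (log2 fold change 0.72 ± 0.10 (SE), adjusted p = 0.0012), a call lost without GA replicate 1.

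*Daphnia* cannot make sterols and must take them from food. In the list of sterol and sphingolipid genes 6 of 46 tested were higher and 8 lower (median −0.15), against 9 higher and 8 lower with DESeq2. Niemann-Pick proteins, which move sterol out of lysosomes, were split by type. The type C-2 protein KZS14252.1 had 456, 459 and 483 CPM in CRY libraries, against 278, 258 and 292 CPM in GA libraries (log2 fold change 0.76 ± 0.06 (SE), adjusted p = 8.6e-05), and the Niemann-Pick C1 protein KZS11965.1 had 301, 288 and 276 CPM in CRY libraries, against 427, 431 and 421 CPM in GA libraries (log2 fold change −0.56 ± 0.06 (SE), adjusted p = 1.9e-04). A sterol regulatory element-binding factor, KZS20049.1, stood at 0.58 on the log2 scale, and oxysterol-binding protein KZS12958.1 fell by 1.25 on the log2 scale, with 6.02, 6.74 and 6.36 CPM in CRY, against 15.4, 14.6 and 15.7 CPM in GA. Neutral ceramidase KZS04837.1, which degrades ceramide, had 85.1, 74.9 and 85.3 CPM in CRY, against 127, 129 and 138 CPM in GA (log2 fold change −0.68 ± 0.07).

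The eicosanoid pathway was lower in CRY in 6 of 13 tested members and higher in none (median −0.84). Prostaglandin D2 synthase-like KZS04037.1 had 113, 104 and 129.7 CPM in CRY libraries, against 361, 392 and 369 CPM in GA libraries (log2 fold change −1.70 ± 0.09 (SE), adjusted p = 8.7e-06). Haematopoietic prostaglandin D synthase KZS03568.1 had 84.7, 94 and 97.6 CPM in CRY libraries, against 285, 327 and 252 CPM in GA libraries (log2 fold change −1.65 ± 0.10), and prostaglandin reductase 2 KZS20464.1, which inactivates prostaglandins in mammals, had 98.9, 105 and 99.3 CPM in CRY libraries, against 228, 229 and 217 CPM in GA libraries (log2 fold change −1.15 ± 0.06). These 3 genes showed no overlap and kept their call without any one library. Cyclooxygenase KZS18300.1, the entry enzyme to prostaglandins, had 11.6, 10.4 and 9.03 CPM in CRY, against 19.5, 14.8 and 17.3 CPM in GA (log2 fold change −0.73 ± 0.14), a call lost without CRY replicate 3, GA replicate 1 and GA replicate 3. Leukotriene A4 hydrolase KZS18502.1 had 188, 184 and 185 CPM in CRY, against 223, 237 and 226 CPM in GA (log2 fold change −0.30 ± 0.05, lost without CRY replicate 1, CRY replicate 3, GA replicate 1, GA replicate 2 and GA replicate 3), and a second model, KZS12840.1, differed by −0.84 ± 0.16 on that scale (lost without CRY replicate 1, CRY replicate 3, GA replicate 1 and GA replicate 3). A lipoxygenase-like protein, KZS06107.1, had 213, 202 and 219 CPM in CRY, against 249.5, 245 and 263 CPM in GA and was not called (adjusted p = 0.013). The study states that lipoxygenase genes are not known so far from *Daphnia*. The number of calls was 3 without CRY replicate 3, without GA replicate 1 or without GA replicate 3. It was 0 higher and 2 lower with all 15 libraries in one fit. Prostaglandin D synthases of this kind belong to the glutathione transferase family, and a product name taken from mammals does not establish the substrate in *Daphnia*.

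Haem peroxidases, which use peroxide to cross-link or oxidise substrates, had 3 of 14 tested members higher and 1 lower (median −0.23). Peroxidasin KZS10831.1, which cross-links collagen of basement membranes, had 254, 288 and 211 CPM in CRY libraries, against 95.6, 93.4 and 95.7 CPM in GA libraries (log2 fold change 1.40 ± 0.11 (SE), adjusted p = 5.5e-05). Dual oxidase KZS20913.1, which makes hydrogen peroxide at epithelia such as the insect gut, had 182, 170.2 and 172 CPM in CRY libraries, against 99, 108 and 106 CPM in GA libraries (log2 fold change 0.74 ± 0.06 (SE), adjusted p = 8.5e-05). Chorion peroxidase KZS04027.1, which hardens the egg shell of insects, had 174, 183 and 173 CPM in CRY, against 89.7, 87.9 and 108 CPM in GA (log2 fold change 0.89 ± 0.09), above all other libraries of the series. All 3 rose without overlap. Lactoperoxidase KZS13197.1 fell by 0.52 on the log2 scale, with the call lost without CRY replicate 3, GA replicate 1, GA replicate 2 and GA replicate 3.

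The cytochrome P450 monooxygenases, which oxidise foreign and internal compounds, were more often lower than higher in CRY. In this list 1 of 27 tested members were called higher and 10 lower (median −0.14). The calls numbered 7 without GA replicate 3, and were 0 higher and 2 lower with all 15 libraries in one fit. P450 6a18 KZS12473.1 had 143, 129 and 143 CPM in CRY libraries, against 419.7, 476 and 465 CPM in GA libraries (log2 fold change −1.71 ± 0.07 (SE), adjusted p = 3.4e-06). P450 9f2 KZS10130.1 had 3.4, 2.57 and 3.01 CPM in CRY libraries, against 35.4, 24.9 and 22.6 CPM in GA libraries (log2 fold change −3.21 ± 0.20), and P450 6a19 KZS08347.1 had 35.1, 29.8 and 33 CPM in CRY libraries, against 84.3, 98 and 84.8 CPM in GA libraries (log2 fold change −1.45 ± 0.09). In all 3 the groups lay apart. KZS10130.1 (LRGB01001877.1, bases 39677 to 42145) lies beside the fatty acid transport protein KZS10131.1 given above (bases 43519 to 45852), which also fell.

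Conjugating enzymes, which attach sugar, glutathione or sulfate to make compounds soluble, were split, with 7 of 41 tested members higher and 10 lower (median −0.09). One UDP-glucuronosyltransferase, KZS05562.1, had 46.2, 52.3 and 46 CPM in CRY libraries, against 6.37, 5.69 and 6.08 CPM in GA libraries (log2 fold change 2.99 ± 0.09 (SE), adjusted p = 1.1e-06), with CRY above and GA below all libraries of the other diets. Another, KZS18442.1, had 0.557, 1.34 and 0.984 CPM in CRY libraries, against 16, 34.4 and 25.5 CPM in GA libraries (log2 fold change −4.71 ± 0.37 (SE), adjusted p = 6.4e-05), the largest decrease among genes with a product name under the naming rule. Glutathione S-transferase A4 KZS14637.1 had 9.91, 17 and 18.1 CPM in CRY libraries, against 194, 84.4 and 150.4 CPM in GA libraries (log2 fold change −3.25 ± 0.33). Sulfotransferase 1C2 KZS16627.1 rose, with 116, 104 and 119 CPM in CRY, against 51.2, 52.6 and 59.4 CPM in GA (log2 fold change 1.06 ± 0.08).

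Antioxidant and iron storage genes had 5 of 33 tested members higher and 6 lower (median 0.03), with 5 without CRY replicate 1, 7 without CRY replicate 3, 5 without GA replicate 1, 6 without GA replicate 2 and 6 without GA replicate 3. Catalase KZS10935.1, which removes hydrogen peroxide, had 238, 229.6 and 225 CPM in CRY libraries, against 323, 335 and 322 CPM in GA libraries (log2 fold change −0.50 ± 0.05 (SE), adjusted p = 2.9e-04). The iron store ferritin KZS07197.1 had 1543, 1465 and 1813 CPM in CRY libraries, against 2325, 2474 and 2518 CPM in GA libraries (log2 fold change −0.60 ± 0.08 (SE), adjusted p = 0.0012, lost without CRY replicate 1). Glutathione peroxidases went both ways, KZS06158.1 by −0.58 ± 0.06 and KZS21126.1 by 0.45 ± 0.06 on the log2 scale.

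Most light-sensing genes were lower in CRY. Of these, 0 of 26 tested members were called higher and 16 lower (median −0.80), and 12 of the 16 calls stood whichever library was left out. Opsins are the light-absorbing proteins of the compound eye and nauplius eye. The long-wavelength opsin KZS10162.1 had 105, 109 and 115 CPM in CRY libraries, against 347, 338 and 305 CPM in GA libraries (log2 fold change −1.59 ± 0.07 (SE), adjusted p = 3.5e-06), and opsin Rh1 KZS05829.1 had 55.4, 51.8 and 52.2 CPM in CRY libraries, against 169, 165 and 158 CPM in GA libraries (log2 fold change −1.63 ± 0.06 (SE), adjusted p = 2.1e-06). KZS10165.1, also a long-wavelength opsin, had 2.45, 2.57 and 3.01 CPM in CRY libraries, against 35.3, 31.1 and 32.6 CPM in GA libraries (log2 fold change −3.62 ± 0.11 (SE), adjusted p = 1.1e-06), and the blue opsin KZS21495.1 had 9.36, 11.1 and 12 CPM in CRY libraries, against 36.5, 33.4 and 34.2 CPM in GA libraries (log2 fold change −1.68 ± 0.10). The 3 GA libraries were above the 3 CRY libraries in each of the 16 called members. Of the genes around KZS10162.1 and KZS10165.1 (LRGB01001877.1, bases 187793 to 211283) 5 of 7 were lower in CRY and none higher. This window was set after values were seen, and the genes at both its ends were called lower. Beta-arrestin-1 KZS10778.1, of the family that shuts off activated opsin, had 72.9, 75.1 and 74.1 CPM in CRY, against 161, 160.2 and 136 CPM in GA (log2 fold change −1.04 ± 0.08). Opsin-5 KZS13848.1 was not called, with 10.4, 11.1 and 11.7 CPM in CRY, against 9.53, 10.5 and 9.75 CPM in GA. In RNA from whole animals fewer cells of a type and less RNA per cell cannot be told apart, here and in the lists of muscle, gut and nerve genes. The summed level of the list was 1085 to 1153 CPM in CRY and 2273 to 2531 CPM in GA.

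**Figure D4:**
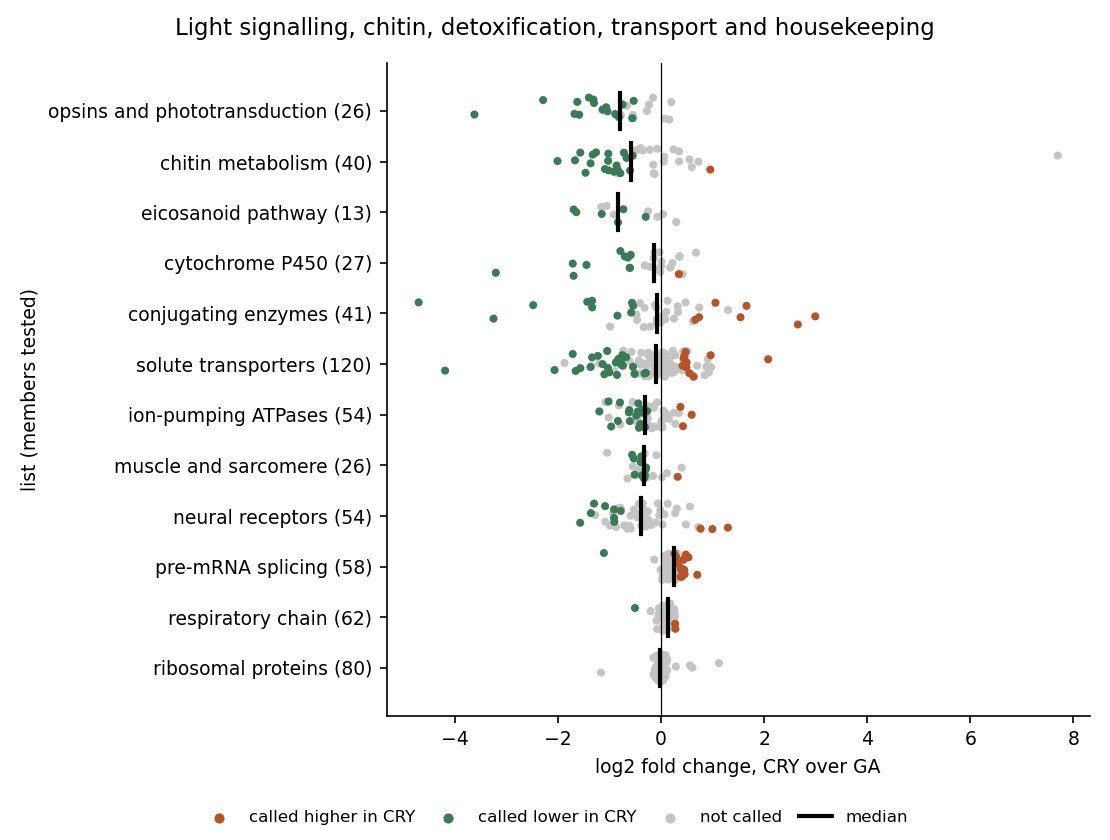
Log2 fold change of CRY over GA (horizontal axis) for every tested member of 12 further lists, with members called higher in orange, lower in green and not called in grey, and a black bar at each median. The bars of opsins (−0.80), chitin metabolism (−0.58) and the eicosanoid pathway (−0.84) lie farthest to the left, and the ribosomal proteins sit around 0.

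Chitin metabolism, which builds and turns over the exoskeleton and the peritrophic matrix, was lower in CRY in 19 of 40 tested members and higher in 1 (median −0.58), and 18 of the 20 calls stood whichever library was left out. With all 15 libraries in one fit no member was called. Peritrophic matrix protein KZS15604.1 had 73.6, 76 and 68.1 CPM in CRY libraries, against 261, 304 and 313 CPM in GA libraries (log2 fold change −2.01 ± 0.09 (SE), adjusted p = 3.4e-06), and KZS14466.1, of the same name, had 68.8, 64.5 and 70.01 CPM in CRY libraries, against 169.8, 180.3 and 175 CPM in GA libraries (log2 fold change −1.37 ± 0.06). Acidic mammalian chitinase KZS15151.1, a chitin-degrading enzyme, had 73.9, 69.9 and 70.6 CPM in CRY libraries, against 218, 224 and 239.8 CPM in GA libraries (log2 fold change −1.67 ± 0.06 (SE), adjusted p = 2.1e-06), and chitinase 3 KZS07511.1 had 97.1, 95.9 and 92.9 CPM in CRY libraries, against 271, 279.8 and 297 CPM in GA libraries (log2 fold change −1.57 ± 0.06). Chitin synthase 2 KZS18078.1, the form that serves the gut in insects, fell (log2 fold change −1.32). A second chitinase 3, KZS15054.1, was the member that rose (log2 fold change 0.96). The summed level of the list was 5113 to 5285 CPM in CRY and 8111 to 8813 CPM in GA, so that CRY and GA lay apart as a whole.

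Structural cuticle proteins were called about as often as all genes, 4 higher and 5 lower of 60 tested (median 0.09), and the count was 16 without CRY replicate 2, 5 without GA replicate 1, 4 without GA replicate 2 and 5 without GA replicate 3. The calls were 7 higher and 6 lower with DESeq2. Obstructor-J KZS21559.1 and obstructor-G KZS21561.1, chitin-binding proteins that order the cuticle in *Drosophila*, fell. KZS21559.1 had 30.2, 29.1 and 32.9 CPM in CRY libraries, against 65.1, 73.4 and 69.3 CPM in GA libraries (log2 fold change −1.17 ± 0.07 (SE), adjusted p = 1.7e-05) and KZS21561.1 had 139, 117 and 139 CPM in CRY, against 272, 267 and 284 CPM in GA (log2 fold change −1.06 ± 0.08). Cuticular protein 66Cb KZS03310.1 had 7.19, 10.5 and 8.97 CPM in CRY, against 2.85, 2.46 and 2.46 CPM in GA (log2 fold change 1.78 ± 0.18). Cuticle genes varied strongly within CRY. The cuticular protein KZS03017.1 had 34.3, 174 and 27.1 CPM in CRY libraries, against 3.56, 2.26 and 2.46 CPM in GA libraries (log2 fold change 4.83 ± 0.80), a call lost without GA replicate 1, GA replicate 2 and GA replicate 3, and the Dusky-like protein KZS21915.1, related to a protein of wing cuticle in *Drosophila*, had 31.1, 83.7 and 15.6 CPM in CRY libraries, against 1.74, 0.205 and 0.518 CPM in GA libraries (log2 fold change 5.69 ± 0.80, lost without GA replicate 3). CRY replicate 2 was the highest library in both. The animals' place in the moult cycle is not given in the sources used here, and its part in these values was not tested.

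Solute transporters were lower in 27 of 120 tested members and higher in 10 (median −0.10). The sodium- and chloride-dependent transporter of neutral and basic amino acids KZS15995.1 had 5.01, 5.99 and 4.63 CPM in CRY libraries, against 115, 68.7 and 103 CPM in GA libraries (log2 fold change −4.19 ± 0.21 (SE), adjusted p = 7.2e-06). The peptide transporter KZS10979.1, of the family that takes up short peptides from the gut, had 19.2, 15.4 and 19.2 CPM in CRY libraries, against 68.8, 78.6 and 77.7 CPM in GA libraries (log2 fold change −2.07 ± 0.10 (SE), adjusted p = 5.4e-06), and KZS03057.1, of the same name, had 22.4, 17.1 and 19.6 CPM in CRY libraries, against 57.9, 66.5 and 62.2 CPM in GA libraries (log2 fold change −1.66 ± 0.10). A cationic amino acid transporter, KZS08684.1, had 71.9, 67.2 and 71.9 CPM in CRY, against 144, 167 and 152 CPM in GA (log2 fold change −1.14 ± 0.07). In each of them GA libraries were the higher ones, without overlap.

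Ion-pumping ATPases were lower in 20 of 54 tested members and higher in 3 (median −0.30), and the calls numbered 12 without CRY replicate 1, 14 without GA replicate 1 and 14 without GA replicate 2. Of the 23 calls 15 were subunits of the V-type proton ATPase, which acidifies lysosomes and energises epithelia. Subunit a KZS14472.1 had 125, 128 and 134 CPM in CRY libraries, against 247, 263 and 249 CPM in GA libraries (log2 fold change −0.97 ± 0.06 (SE), adjusted p = 1.7e-05), and subunit S1 KZS07496.1 had 181, 177 and 176 CPM in CRY libraries, against 279, 279 and 261 CPM in GA libraries (log2 fold change −0.62 ± 0.05). Cation-transporting ATPase 13A2 KZS18804.1, a lysosomal pump, had 36.1, 29.2 and 34.5 CPM in CRY, against 63.3, 69.2 and 70.1 CPM in GA (log2 fold change −1.02 ± 0.09). With all 15 libraries in one fit the direction of the calls turned, to 3 higher and none lower.

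Muscle and sarcomere genes were lower in 11 of 26 tested members and higher in 1 (median −0.33), by small amounts and with counts that depended on single libraries: 6 without CRY replicate 1, 5 without CRY replicate 3, 1 without GA replicate 1, 1 without GA replicate 2 and 5 without GA replicate 3. A single fit of all 15 libraries called 0 higher and 1 lower. Myosin heavy chain KZS11384.1, the motor of the thick filament, had 2126, 2018 and 1879.8 CPM in CRY libraries, against 3137, 2926 and 2537 CPM in GA libraries (log2 fold change −0.51 ± 0.09 (SE), adjusted p = 0.0029), and the call was lost without CRY replicate 3, GA replicate 1 and GA replicate 2. Troponin C KZS06816.1, the calcium sensor of the thin filament, had 43.4, 47.5 and 51.6 CPM in CRY, against 73, 68.8 and 68.5 CPM in GA (log2 fold change −0.56 ± 0.07 (SE), adjusted p = 7.8e-04). The summed level was 9260.4 to 9742 CPM in CRY and 11316 to 12574 CPM in GA, and none of the 26 members was at 0 in all libraries. In the extracellular matrix list 4 of 29 tested were higher and 3 lower, a majority that turned with the FPKM values, with 4 without CRY replicate 1, 4 without GA replicate 1, 4 without GA replicate 2 and 2 without GA replicate 3. Nidogen-2 KZS19650.1, of the basement membrane, had 95.6, 97.3 and 90.3 CPM in CRY, against 161, 126 and 153 CPM in GA (log2 fold change −0.64 ± 0.09), while laminin beta-1 KZS17228.1 differed by 0.54 ± 0.09 on the log2 scale and laminin gamma-3 KZS21355.1 by 0.47 ± 0.08, calls lost without CRY replicate 1 and GA replicate 3 and without GA replicate 2 and GA replicate 3.

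Receptors of the nervous system were called lower in 8 of 54 tested members and higher in 3 (median −0.38). These are 14.8% and 5.56%, against 9.59% and 6.62% of all tested genes. The lower majority depended on single libraries. Calls were 3 higher and 4 lower without CRY replicate 1. They were 3 higher and 3 lower without CRY replicate 3, GA replicate 1, GA replicate 2 or GA replicate 3. The summed level of the list was 2363 to 2536 CPM in CRY and 1421 to 1767 CPM in GA. Most of this sum, and its rise, came from a single gene, the nicotinic acetylcholine receptor beta 3 KZS07084.1. It had 2154, 2226 and 2326 CPM in CRY libraries, against 1167, 1520.0 and 1253 CPM in GA libraries (log2 fold change 0.77 ± 0.10 (SE), adjusted p = 6.9e-04). The receptor for the neuropeptide CCHamide-1, KZS20731.1, had 29.5, 33.1 and 27 CPM in CRY libraries, against 12.7, 10.8 and 12.9 CPM in GA libraries (log2 fold change 1.30 ± 0.11 (SE), adjusted p = 8.9e-05). Glutamate receptor subunit 1 KZS21008.1 had 4.01, 3.75 and 3.7 CPM in CRY, against 9.26, 6.82 and 8.24 CPM in GA (log2 fold change −1.09 ± 0.15). The diets did not overlap in these genes.

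Some splicing genes rose by small amounts. In this list 16 of 58 tested members were higher and 1 lower (median 0.26), but with the FPKM values 2 were higher and 1 lower, and the count of calls was 5 without CRY replicate 1, 11 without CRY replicate 3, 8 without GA replicate 1, 8 without GA replicate 2 and 7 without GA replicate 3. The epithelial splicing regulatory protein KZS03413.1 had 273, 289 and 256 CPM in CRY libraries, against 172, 172 and 159 CPM in GA libraries (log2 fold change 0.70 ± 0.07 (SE), adjusted p = 1.6e-04). Serine/arginine-rich splicing factor 1 KZS02794.1 had 82.9, 79.2 and 81.6 CPM in CRY, against 59.8, 58.5 and 59.97 CPM in GA (log2 fold change 0.45 ± 0.05). The exception, an ATP-dependent RNA helicase of the spliceosome (KZS21407.1), had 43.1, 35.6 and 34.9 CPM in CRY, against 81.6, 79.8 and 83.6 CPM in GA (log2 fold change −1.11 ± 0.08).

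Ribosomal proteins stood close to 0. No ribosomal protein among 80 tested was called (median −0.01), and 1 was without CRY replicate 3. With limma on the FPKM values, 0 were higher and 9 lower (median −0.19). 60S ribosomal protein L4 KZS17311.1 had 2451, 2398 and 2444 CPM in CRY, against 2697, 2783 and 2619 CPM in GA (log2 fold change −0.15 ± 0.05, adjusted p = 0.052). Of 62 respiratory chain genes 2 were higher and 1 lower (median 0.13), while 55 of the 62 had a log2 fold change above 0 and the summed level was 39989 to 43055 CPM in CRY and 36107 to 37578 CPM in GA, without overlap. DESeq2 called 9 higher and 1 lower, limma on the FPKM values none higher and 2 lower (median −0.05), and the count of calls was 1 without CRY replicate 1, 7 without CRY replicate 2, 1 without CRY replicate 3, 1 without GA replicate 1, 1 without GA replicate 2 and 1 without GA replicate 3. The flavoprotein subunit of succinate dehydrogenase KZS17456.1 fell by 0.51 on the log2 scale, with 223, 241 and 225 CPM in CRY, against 331, 325 and 322 CPM in GA, and the calls of the cytochrome b560 subunit KZS12836.1 (log2 fold change 0.28 ± 0.05) and of an NADH dehydrogenase subunit KZS07963.1 (log2 fold change 0.27 ± 0.05) were lost without CRY replicate 1, CRY replicate 3, GA replicate 1, GA replicate 2 and GA replicate 3 and without each of the 6 libraries in turn. Chaperones had 2 of 59 tested members higher and 2 lower, with 1 without CRY replicate 1, 2 without GA replicate 1, 2 without GA replicate 2 and 1 without GA replicate 3. In the list of replication and cell division, a list of genes also used by eggs and embryos, 7 of 77 tested were higher and 3 lower, with 4 without CRY replicate 1, 5 without CRY replicate 3, 4 without GA replicate 1, 5 without GA replicate 2 and 4 without GA replicate 3. The large subunit of ribonucleoside-diphosphate reductase KZS08302.1, which makes DNA precursors, had 172, 175 and 170.2 CPM in CRY libraries, against 119, 121 and 118 CPM in GA libraries (log2 fold change 0.54 ± 0.05 (SE), adjusted p = 1.9e-04), and the catalytic subunit of DNA polymerase delta KZS16289.1 had 58.8, 46.8 and 58.3 CPM in CRY libraries, against 116, 99 and 119.9 CPM in GA libraries (log2 fold change −1.03 ± 0.11 (SE), adjusted p = 2.7e-04). The summed level of that list was 3717 to 4060.4 CPM in CRY and 3889 to 3908 CPM in GA, with overlapping groups.

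In the list of lectins and innate immunity 5 of 44 tested were higher and 9 lower, with 9 without GA replicate 1, 7 without GA replicate 2 and 9 without GA replicate 3. The Gram-negative bacteria-binding protein KZS21744.1, a recognition protein whose family also cleaves beta-glucans in crustaceans, had 16.6, 17 and 19.4 CPM in CRY libraries, against 5.79, 4.51 and 6.95 CPM in GA libraries (log2 fold change 1.61 ± 0.16 (SE), adjusted p = 1.8e-04), with CRY above and GA below all libraries of the other diets. A C-type lectin, KZS16314.1, had 24.3, 21.4 and 26.3 CPM in CRY, against 50.4, 43.6 and 47.7 CPM in GA (log2 fold change −0.98 ± 0.09). Among the hormone genes 1 of 27 tested was higher and 4 lower. The retinoid X receptor KZS21071.1, the partner of the ecdysone receptor, had 27.8, 29.7 and 29 CPM in CRY libraries, against 51.3, 54 and 52.6 CPM in GA libraries (log2 fold change −0.87 ± 0.06 (SE), adjusted p = 2.5e-05). Juvenile hormone epoxide hydrolase KZS17459.1, which degrades juvenile hormone in insects, had 38.4, 35.2 and 35.9 CPM in CRY libraries, against 56.2, 51.3 and 51.3 CPM in GA libraries (log2 fold change −0.54 ± 0.06 (SE), adjusted p = 5.1e-04). Nuclear hormone receptor HR96 KZS04364.1, a sensor of foreign compounds in *Daphnia pulex*, had 24.8, 24.5 and 25.5 CPM in CRY, against 38.1, 39.4 and 41.3 CPM in GA (log2 fold change −0.67 ± 0.06).

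The largest differences were found where one diet had almost no reads. Transmembrane protease serine 9 KZR98009.1 had 9.91, 7.54 and 7.0 CPM in CRY, against 0.0445, 0 and 0 CPM in GA. The angiopoietin-related protein KZS19370.1 had 22.7, 29.4 and 17.6 CPM in CRY libraries, against 0.178, 0.41 and 0.388 CPM in GA libraries (log2 fold change 6.14 ± 0.30), and carbonic anhydrase 14 KZS12237.1 had 7.3, 22.6 and 1.74 CPM in CRY, against 0.0445, 0.103 and 0.173 CPM in GA, a call lost without GA replicate 1, GA replicate 2 and GA replicate 3. Among the uncharacterized proteins KZS18831.1 had 33, 26.7 and 33.8 CPM in CRY libraries, against 0.134, 0.154 and 0.216 CPM in GA libraries (log2 fold change 7.48 ± 0.20 (SE), adjusted p = 1.1e-06), above all libraries of the other diets. KZS18144.1 had 3.45, 2.03 and 2.72 CPM in CRY, against 0, 0 and 0 CPM in GA, at least 19.7-fold higher in CRY if the floor is taken as 3 counts per library. In the lower direction aromatic-L-amino-acid decarboxylase KZS08945.1, which makes dopamine and serotonin, had 0.613, 0.856 and 0.694 CPM in CRY, against 11, 7.48 and 8.93 CPM in GA (log2 fold change −3.65 ± 0.23), and ATP-binding cassette sub-family G member 2 KZS09610.1, an export pump, had 9.8, 9.31 and 9.78 CPM in CRY libraries, against 84.7, 104 and 113 CPM in GA libraries (log2 fold change −3.38 ± 0.11). The uncharacterized KZS15812.1 had 7.85, 5.78 and 9.72 CPM in CRY, against 169, 167 and 133 CPM in GA (log2 fold change −4.33 ± 0.18), and KZS08828.1 had 0.167, 0.107 and 0.174 CPM in CRY, against 8.55, 6.25 and 12.5 CPM in GA. Of all called genes 890 had no product name, 344 higher and 546 lower, among 5608 such genes tested. The most abundant called gene, KZS10334.1, was one of these, with 51663, 53869.5 and 57413 CPM in CRY libraries, against 39301, 41337 and 40162 CPM in GA libraries (log2 fold change 0.43 ± 0.06 (SE), adjusted p = 0.0014), and its call was lost without GA replicate 1, GA replicate 2 and GA replicate 3.

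Against the 3 remaining diets (the cyanobacterium CY, CY with EPA and GA with EPA) GA was more often the extreme diet than CRY. Of the 947 genes that rose, CRY lay above all 12 other libraries in 150 and GA lay below all 12 others in 254. Of the 1372 that fell, CRY lay below all 12 others in 200 and GA above all 12 others in 511. Among all tested genes the corresponding counts were 321 and 543, and 426 and 819. These are descriptions, since the genes were chosen by the difference between CRY and GA. Summed CPM of the 13 vitellogenin models averaged 94847 ± 15703 in CRY, 86428 ± 10123 in CY + EPA, 101802 ± 41427 in CY, 31669 ± 12044 in GA + EPA and 11799.8 ± 2919 in GA (SD, n = 3 each). For the globins the averages were 1997 ± 335 in CRY, 3261 ± 193 in CY + EPA, 2486 ± 474 in CY, 1136 ± 179.7 in GA + EPA and 673 ± 223 in GA. CRY thus lay within the range of the CY diets in vitellogenin and under CY with EPA in globins. Opsin and phototransduction genes averaged 1088 ± 38.1 in CRY, 1645 ± 176 in CY + EPA, 1389 ± 299 in CY, 2048 ± 102 in GA + EPA and 2376 ± 129 in GA, with CRY lowest in the mean and its range overlapping that of CY. Chitin metabolism averaged 5116 ± 86.7 in CRY, 3165 ± 1193 in CY + EPA, 3637 ± 788 in CY, 6639.6 ± 3287 in GA + EPA and 8427 ± 391 in GA, and cytochrome P450 genes 1075 ± 40.6 in CRY, 815 ± 133 in CY + EPA, 887 ± 70.7 in CY, 1179 ± 332 in GA + EPA and 1655 ± 74.3 in GA. Lipases and phospholipases averaged 2003 ± 102 in CRY, 1409 ± 225 in CY + EPA, 1642 ± 163 in CY, 1535 ± 306 in GA + EPA and 1685 ± 76.3 in GA, with each CRY library above every other library.

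**Figure D5:**
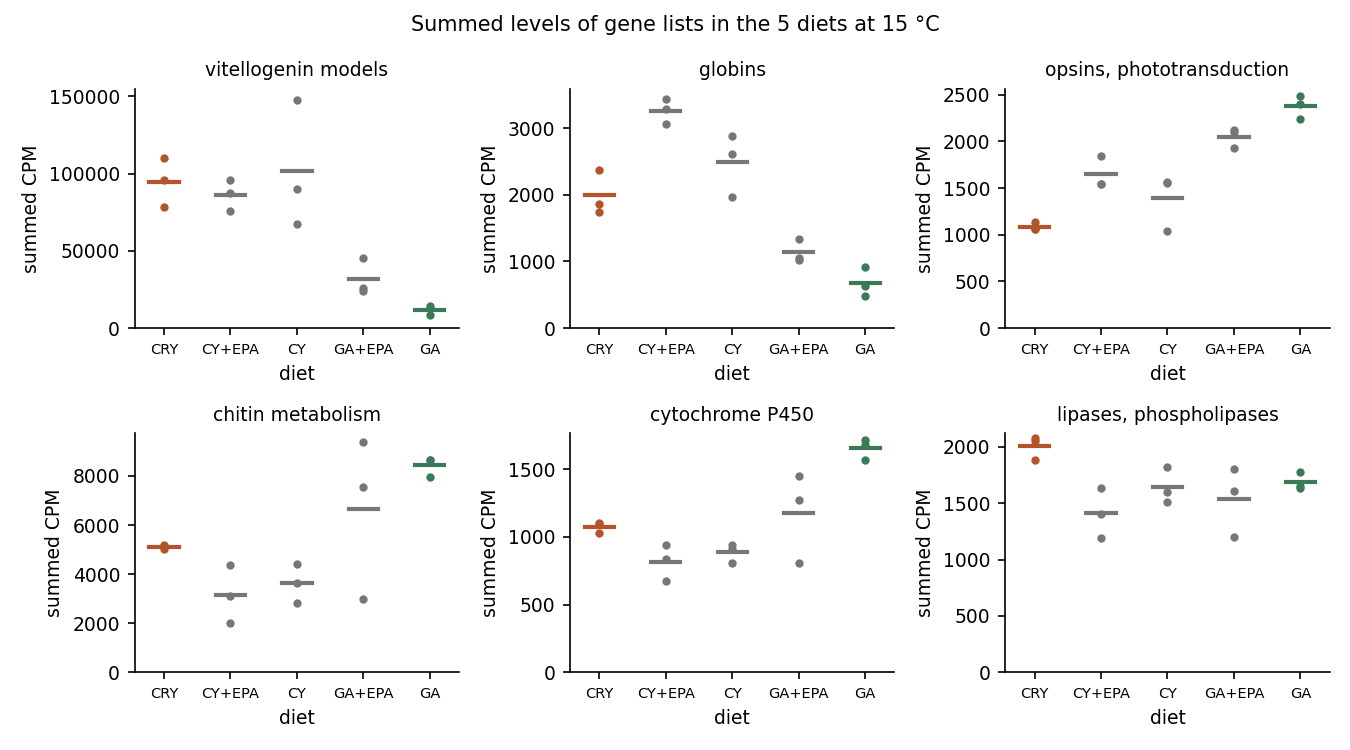
Summed level (CPM, linear scale from 0) of 6 lists in each of the 15 libraries, by diet, with a bar at the diet's mean, CRY in orange, GA in green and the remaining diets in grey. GA is lowest in vitellogenin and globins and highest in the mean of opsin, chitin and P450 genes, and CRY is highest in lipases and phospholipases.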

How the data were processed

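RNA of whole animals was sequenced in paired ends on an Illumina HiSeq. The authors trimmed the reads with Trimmomatic, aligned them to the reference v2.4 of *D. magna* using Bowtie 2, and quantified genes with RSEM 1.2.31. The deposited expected counts are RSEM's estimates per gene, without normalisation, and are not whole where reads were split between similar genes. The deposited FPKM values are these estimates divided by gene length and library size and served only as an alternative. Deposited TPM values were not used. The files list 26646 genes, 26645 of them with location, product name and artNOG category in the authors' annotation. No identifier matched the RefSeq gene table.

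Counts of the 6 libraries, rounded to whole numbers, entered the quasi-likelihood test of edgeR 4.0.16 (R 4.3.3) after filterByExpr and TMM scaling. The Benjamini-Hochberg adjustment ran over 14303 genes and genes were called at 0.01, the level of the study's own tests. Library totals were compared with an exact permutation test (SciPy 1.17.1). CPM were scaled by TMM over the 6 libraries, and for the comparison of 5 diets over all 15. The biological coefficient of variation was 0.136, so that the spread between pools sets the precision of all but the rarest genes.

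Lists were built from product names, and lists and genes were chosen with earlier results of these data known. Lists are described by counts and medians, without a test of the list. The text names the genes that the study compares with earlier qPCR work (candidates from *Cryptomonas*-fed animals and housekeeping genes), the 10 highest and 10 lowest log2 fold changes with a product name and the 3 highest and 3 lowest without one (called, no overlap, mean of at least 1 CPM), up to 4 called members of each list by smallest p (mean of at least 5 CPM; with none called, the 2 most abundant members), and the 10 most abundant called genes. Other genes with values, among them neighbours on a scaffold and further members of lists, were chosen after their values were seen. Alternatives were DESeq2 1.42.0, RLE size factors, no filter, a filter of 10 counts in each library, one fit of all 15 libraries, replicate number as a block, limma 3.58.1 on log2(FPKM + 0.1) and log2(FPKM + 1), an adjusted p of at most 0.05, and fits without each library. The scripts were tested on simulated data. No batch is given in the labels, and libraries from 20 °C were not analysed here.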

Additional observations from a re-analysis of the deposited data

How the results depend on the processing

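Against 2319 genes called in the main test (947 higher and 1372 lower in CRY), all 15 libraries in one fit gave 851 (414 higher, 437 lower), and 365 in place of 801 that differed by 1 or more on the log2 scale. The threshold of 0.05 gave 4314 (1937 higher, 2377 lower). Limma called 476 higher and 2183 lower on log2(FPKM + 0.1), and 477 higher and 2196 lower on log2(FPKM + 1). With 1 library left out the counts ranged over 1369 to 2488 called, 512 to 1109 higher, 857 to 1379 lower and 583 to 814 differing by 1 or more on the log2 scale, and the difference in library totals over −11.8% to −4.23%. DESeq2 called 2940 (1375 higher, 1565 lower) and kept 2275 of the 2319. RLE size factors gave 2333, at least 10 counts in every library 2323 and no filter 2476. The cause of these shifts was not tested, beyond the fewer libraries of each leave-one-out fit. Replicate numbers did not pair the libraries (correlations of deviations for equal numbers −0.0092, 0.060 and 0.23). With the replicate block 2165 genes were called (889 higher, 1276 lower), 1975 of them among the 2319, and not every library correlated best with its own number. Of 188 called genes named or considered for naming none reversed, and 72 missed the threshold with all 15 libraries, 12 and 13 with FPKM, 2 without a filter, 5 with the block and 1 to 22 with 1 library left out. Of 30 lists the majority of calls turned in cuticle proteins (DESeq2, all 15 libraries, adjusted p of at most 0.05, without CRY replicate 2), glycoside hydrolases (DESeq2, all 15 libraries, adjusted p of at most 0.05), sterol genes (DESeq2), ion-pumping ATPases (all 15 libraries), lipases (FPKM), extracellular matrix (FPKM, without CRY replicate 2, without GA replicate 3), conjugating enzymes (without CRY replicate 1), replication genes (without CRY replicate 3) and the respiratory chain, which had 3 calls, in several. A majority that fell to a tie or to no calls is not counted as turned. With all 15 libraries, 21 of the 30 lists kept the balance of the main test and 4 turned. Chitin metabolism then had no call. Serine proteases were 10 higher and 10 lower with the FPKM values, and neural receptors 3 higher and 3 lower in several fits without 1 library. The depth, 18218136 counts in the shallowest library, leaves genes under 1 CPM with few reads, where a difference may not be detectable.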

Other observations

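Further groups of genes were collected after their values had been seen, and are given here as values. All 4 genes of glutathione synthesis were lower in CRY. The catalytic subunit of glutamate-cysteine ligase, KZS07939.1, which makes the first and limiting step, had 43.3, 43.9 and 37 CPM in CRY libraries, against 177, 162 and 166 CPM in GA libraries (log2 fold change −2.03 ± 0.08 (SE), adjusted p = 2.8e-06), and its regulatory subunit KZS08063.1 had 35.3, 40.5 and 40.1 CPM in CRY libraries, against 78.7, 97.8 and 105 CPM in GA libraries (log2 fold change −1.28 ± 0.11). Glutathione synthetase KZS15426.1 had 39.8, 42.9 and 41.3 CPM in CRY libraries, against 157, 173 and 166 CPM in GA libraries (log2 fold change −2.0 ± 0.07), whereas the second model of that name, KZS05736.1, had 41, 40.1 and 40.9 CPM in CRY libraries, against 54.8, 53 and 52.1 CPM in GA libraries (log2 fold change −0.39 ± 0.05). No library of CRY reached the level of any GA library in these genes. Summed over the 4 genes the level was 162 ± 4.62 CPM in CRY and 481 ± 11.9 in GA (SD, n = 3 each).

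Neuropeptide precursors were lower in 9 of 16 tested members and higher in none (median −1.10). They included AST-B/myoinhibitory peptide KZS20495.1 (5.63, 4.82 and 5.67 CPM in CRY libraries, against 12.5, 12.6 and 12.1 CPM in GA libraries), short neuropeptide F KZS05974.1 (3.51, 3.0 and 2.89 CPM in CRY libraries, against 7.21, 8.56 and 7.2 CPM in GA libraries) and ion transport peptide KZS21730.1 (5.4, 5.73 and 4.57 CPM in CRY libraries, against 12.1, 10.1 and 10.7 CPM in GA libraries), with log2 fold changes of −1.21 ± 0.11, −1.29 ± 0.15 and −1.07 ± 0.13. Peroxinectins, cell-adhesive peroxidases of crustacean blood cells, were higher in 3 of 9 tested members and lower in none. KZS04030.1 had 532, 362 and 596 CPM in CRY libraries, against 36.1, 111 and 59.7 CPM in GA libraries (log2 fold change 2.85 ± 0.38 (SE), adjusted p = 9.9e-04), without overlap. Of the products named "Nose resistant to fluoxetine", a family of membrane proteins described in *Caenorhabditis elegans*, 5 of 8 tested were lower and none higher, among them KZS18025.1 with 29.3, 26 and 26.4 CPM in CRY libraries, against 75.8, 80.4 and 86.8 CPM in GA libraries (log2 fold change −1.57 ± 0.07). Genes named Jonah, Phaedra or ovochymase were lower in 5 of 7 tested members and summed to 2694, 2481 and 2730 CPM in CRY libraries, against 10685, 9284 and 10567 CPM in GA libraries. ABC transporters were lower in 14 of 68 tested members and higher in 3.

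Single libraries differed within a diet. Of 51 genes that were not called although their log2 fold change was at least 2 and their mean at least 2 CPM, CRY replicate 2 was more than 2 times both other CRY libraries in 39, and 39 of the 51 had no product name. Endochitinase KZS04090.1 had 0.947, 49.8 and 0.752 CPM in CRY libraries, against 0.134, 0 and 0.0863 CPM in GA libraries, and the Dusky-like protein KZS02930.1 had 2.45, 32.7 and 0.694 CPM in CRY libraries, against 0.623, 0.769 and 0.388 CPM in GA libraries. The uncharacterized neighbours KZS16896.1 and KZS16897.1 had 0.334, 868 and 1.33 CPM in CRY libraries, against 0.178, 0.461 and 0.906 CPM in GA libraries, and 3.17, 655 and 6.77 CPM in CRY libraries, against 1.02, 1.69 and 2.07 CPM in GA libraries. CRY replicate 1 was the high library in a collagen, KZS03231.1, with 101, 47.8 and 1.62 CPM in CRY libraries, against 2.09, 0.974 and 1.64 CPM in GA libraries, and in cuticular protein 30F KZS04317.1, with 88, 23.6 and 2.95 CPM in CRY libraries, against 4.41, 3.54 and 3.75 CPM in GA libraries. Of 10 such genes in the lower direction CRY replicate 3 was more than 2 times both other CRY libraries in 6, and GA replicate 1 more than 2 times both other GA libraries in 5.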
